A study of Mus musculus with 23 samples.

Results

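Gene expression was compared in tongue muscle between mice flown aboard the Bion-M1 biosatellite (BF) and mice kept in a standard animal facility during the flight (FC). The comparison used the 5 arrays labelled with these groups and this muscle, 3 BF and 2 FC, out of 23 arrays in the series, and all 22626 probe sets of each array. Animals were male mice, labelled C57/BL6 and named C57BL/N6 in the paper, aged 19 to 20 weeks with no genetic change. The flight lasted 30 days, and tissue of flown mice was taken 12 to 14 h after landing. A further ground group (BG, 3 tongue arrays) lived in a replica of the biosatellite habitat. Its values are set beside those of BF and FC, because FC mice differed from BF mice in housing as well as in flight. In *longissimus dorsi* (LD), the paraspinal muscle of the same study, 5 BF and 5 FC arrays were available. The sources do not say whether LD and tongue were taken from the same mice, and replicates are separate samples. The p-values rest on the spread within groups pooled over all 23 arrays of both muscles, not on the tongue arrays alone.

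The tongue is built of fast striated fibres that run in several directions and work in feeding, licking and grooming whether or not the body bears weight. The study took it as a muscle that stays active in orbit. A whole tongue sample also holds the keratinized epithelium of the tongue surface, connective tissue, nerves, glands and taste buds. RNA of all these parts reaches the array together.

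Signals are on the log2 scale, where 1 unit equals 2-fold, and a level cannot be compared between probe sets. The tongue label was checked against defining markers of striated muscle and oral epithelium, and both were bright. Ckm, the muscle creatine kinase, lay between 13.71 and 14.06 in the 5 arrays. Krt4, a keratin of the oral epithelium, lay between 14.07 and 14.39, and Krt13, its partner, between 13.56 and 13.91. The array medians lay between 6.54 and 6.61. Around its group mean an array had an SD of 0.160, 0.217 and 0.191 in BF and 0.103 in each of the FC arrays. The SD of the difference between the 2 FC arrays, 0.205, was below that of every pair of BF arrays (0.278 to 0.376).

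In tongue of flown mice 506 probe sets differed from FC at an adjusted p under 0.05, which is 2.24% of those tested. Of them 262 (1.16%) were higher and 244 (1.08%) were lower in BF. With a change of more than 2-fold in addition, 148 remained (0.654%), 86 higher (0.38%) and 62 lower (0.274%). At an unadjusted p under 0.05, 3642 passed (16.1%). The BF and FC arrays did not overlap for 37.8% of all probe sets, with BF above FC for 17.6% and below for 20.2%. The call closest inside the limit was a probe set of Zbtb20 (change -0.71, adjusted p = 0.0496) and the closest outside was one of Vcl (0.73, adjusted p = 0.0501). The median change over all probe sets was -0.01.

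The number of calls rested on the FC arrays above all. Without FC tongue replicate 1 it was 45 and without FC tongue replicate 2 it was 142, where the lone FC array was assumed to vary like the arrays of other groups. Without BF tongue replicate 3 it was 302, and 421 and 363 without BF tongue replicates 1 and 2. Of the 506 calls, 43 remained without FC 1 and 132 without FC 2. In total 34 probe sets, 15 higher and 19 lower, were called in the same direction whichever of the 5 arrays was left out, and these were sought after the values had been seen. Beside genes described below they included Gja1, the gap junction protein connexin 43 (1.38), Tmem38a, a potassium channel of the sarcoplasmic reticulum (1.04), Capzb, which caps actin filaments at the Z-disc (1.40), Pdlim5, a Z-disc adaptor (1.20), and, among the lower, Ikbke, a kinase of innate immune signalling (-0.92). Every call named here that is not among the 34 was lost without at least 1 array.

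The 14 largest increases in flown tongue, chosen among calls whose BF and FC arrays did not overlap, ranged from 2.80-fold to 4.46-fold. Ppp1r3c, which brings protein phosphatase 1 to glycogen, was measured at 7.68, 7.15 and 6.32 in BF against 4.82 and 4.96 in FC. The change was 2.16 (SE 0.49, adjusted p = 0.0201). A brighter probe set of Ppp1r3c rose as well, by 1.32 (SE 0.34, adjusted p = 0.0436). That probe set had an SD of 0.99 in BF and 0.02 in FC, and its SE pools both muscles. Hspb7, a small heat shock protein of heart and skeletal muscle, was at 9.67, 9.34 and 9.60 in BF and at 7.32 and 7.48 in FC, with a change of 2.13 (SE 0.48, adjusted p = 0.0201). Of these 2 genes' leading probe sets, that of Ppp1r3c was not called without BF tongue replicate 1 (adjusted p = 0.0741), BF 2 (0.0542), FC 1 (0.264) or FC 2 (0.122). That of Hspb7 was not called without BF 1 (0.0524), BF 3 (0.0568), FC 1 (0.268) or FC 2 (0.117).

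Rbbp4, a histone-binding subunit of chromatin complexes, was at 7.52, 7.75 and 8.01 in BF and at 5.67 and 5.88 in FC. Its change of 1.99 (SE 0.20, adjusted p = 1.94e-05) was called whichever array was left out. Tbx15, a T-box transcription factor of skeletal muscle and skeleton, was at 7.14, 7.29 and 7.24 against 5.43 and 5.24 (change 1.88, SE 0.29, adjusted p = 0.00125). Rnf114, a ubiquitin ligase, was at 7.01, 6.96 and 7.38 against 5.14 and 5.38 (change 1.86, SE 0.26, adjusted p = 0.000467). These values left a gap of more than 1 between the groups in each of the 3 genes, and the calls held whichever array was left out.

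Txnip, which binds thioredoxin and restrains glucose uptake, was at 7.73, 7.86 and 7.94 in BF and at 5.64 and 6.46 in FC. The change was 1.80 (SE 0.27, adjusted p = 0.00114). It was not called without FC tongue replicate 1 (adjusted p = 0.0851). The remaining genes were Gdi2 (1.85) and Rab18 (1.78), which act in Rab-driven vesicle traffic, Isca1 (1.70) and Nfs1 (1.53), which build iron-sulphur clusters, Pvalb (1.58), the calcium buffer of fast fibres, Aplp2 (1.58), Sypl (1.5) and Hbp1 (1.49), a transcriptional repressor. None of these 8 was called without FC tongue replicate 1 (adjusted p 0.052 to 0.324). Gdi2 (0.0723), Pvalb (0.19) and Sypl (0.0697) were not called without FC 2 either, nor Gdi2 without BF 3 (0.0559).

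**Figure D1:**
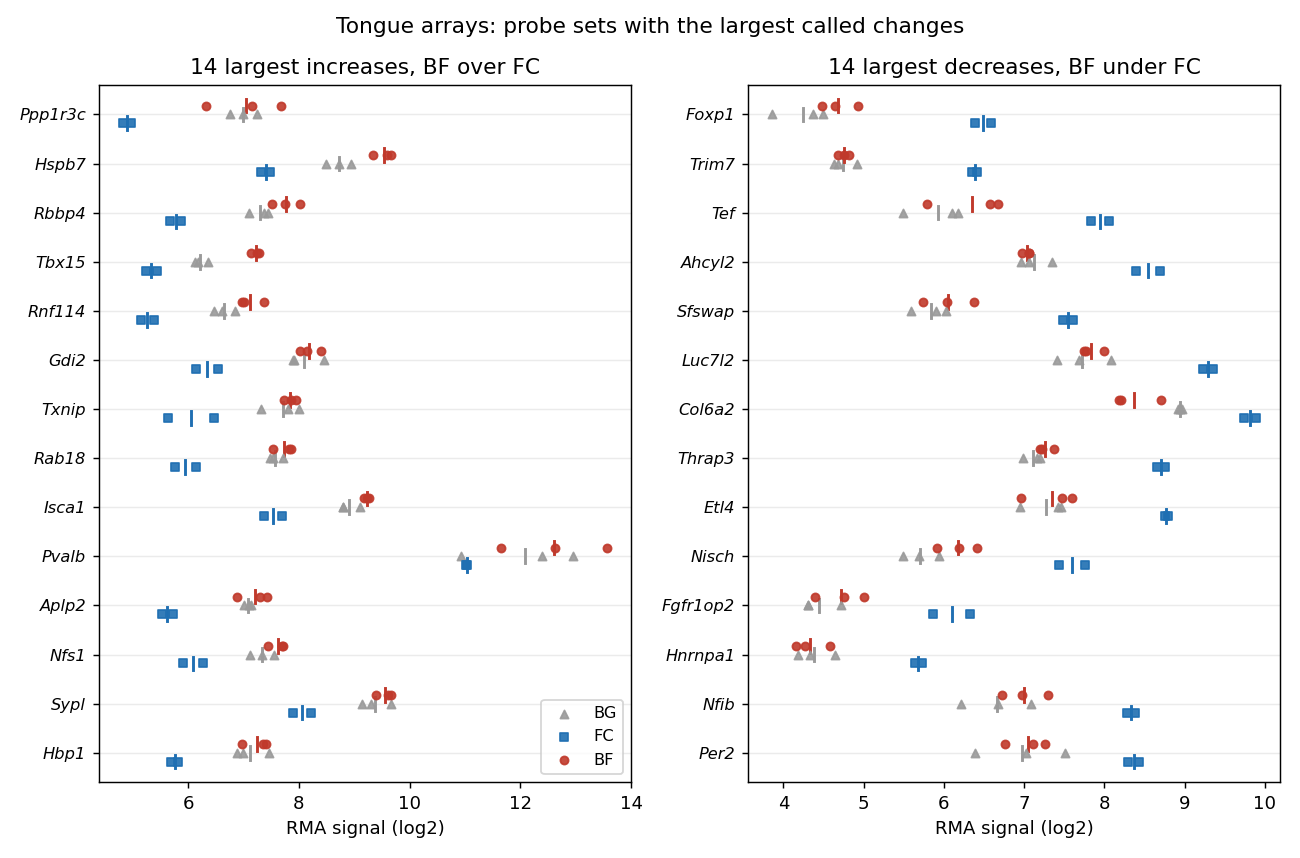
Log2 RMA signal of the 14 largest called increases (left) and decreases (right) in tongue, BF vs. FC, with 1 point per array and a bar at the group mean for BF (circles), FC (squares) and BG (triangles). The probe sets were chosen among calls whose BF and FC arrays did not overlap, so their separation is not a result. The BG mean is nearer to BF than to FC for 13 of the 14 increases and all 14 decreases.

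The BG mice stayed on the ground, as the FC mice did, and their values lay nearer to BF than to FC in most of these genes. For Rbbp4 the BG mean was 7.30 against 7.76 in BF and 5.78 in FC, and for Txnip it was 7.70 against 7.84 and 6.05. Over the 262 probe sets called higher, the median of BF minus BG was 0.16 and that of FC minus BG was -0.70. For the 244 called lower these medians were 0.00 and 0.79. The BG mean was nearer to BF for 81.7% of the higher and 88.1% of the lower probe sets, and for 59.3% of all. These comparisons share the BF or FC arrays with BF vs. FC and are given side by side only. By the same rule, BF vs. BG in tongue gave 187 calls (0.826%), and FC vs. BG gave 2139 (9.45%). With the replicate number as a block, BF vs. BG gave 532. It gave 14 without BF tongue replicate 1, 16 without BF 3, 10 without BG 1 and 31 without BG 2, but 1067 without BF 2 and 480 without BG 3. FC vs. BG gave 125 without FC 1, 685 without FC 2, 1347 without BG 1 and 670 without BG 2. The habitat and the flight cannot be told apart in BF vs. FC.

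Most of the large increases were seen in a single probe set of a gene that the array covers several times. Rbbp4 has 3 probe sets, and the others changed by -0.16 and 0.52. Txnip has 2, and the brighter changed by 0.03. Of the 14 largest increases 13, and of the 14 largest decreases 10, were not from the brightest probe set of the gene. Over the 234 genes with a probe set called higher, 200 had others as well, and the median change of these 397 other probe sets was 0.02, with 51.4% above 0. Over the 190 genes called lower, 129 had others, and the median of these 292 was -0.12, with 64.4% below 0. Probe sets that the array's maker marks as shared by transcripts of a gene (suffix a) made up 36.6% of the higher calls and 17.9% of all probe sets. Among the lower calls, 13.1% name no gene, against 6.87% of all. Whether the probe sets of a gene that differ measure different transcripts was not tested. For 6 genes, Aqp3, Bicd2, Fbxw2, Pdcd6ip, Pigq and Sfswap, probe sets were called in opposite directions.

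**Figure D2:**
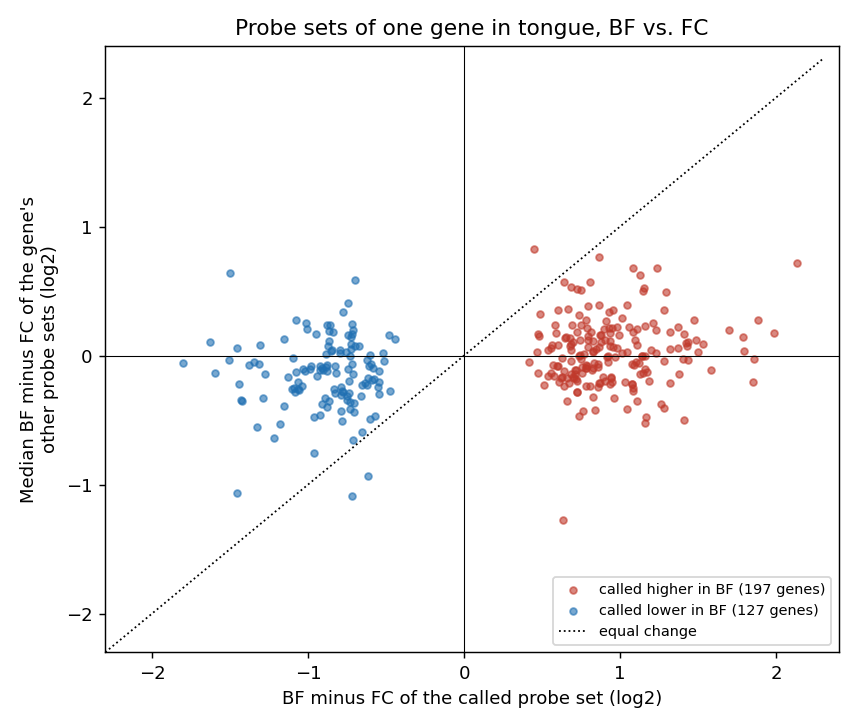
Change in tongue, BF minus FC on the log2 scale, of the called probe set of a gene (horizontal, the largest where several were called) against the median change of the gene's other probe sets (vertical). Points are 197 genes called higher and 127 called lower that have a probe set not called in that direction. The medians on the vertical axis centre on 0.02 and -0.12, away from the dotted line of equal change.

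The 14 largest decreases in flown tongue, chosen by the same rule, ranged from 2.49-fold to 3.49-fold. Foxp1, a forkhead transcription factor, was at 4.93, 4.48 and 4.64 in BF and at 6.59 and 6.39 in FC, and fell by 1.80 (SE 0.20, adjusted p = 5.81e-05). Trim7, a ubiquitin ligase that binds glycogenin, was at 4.68, 4.75 and 4.82 against 6.35 and 6.41 and fell by 1.63 (SE 0.26, adjusted p = 0.00135). Ahcyl2, a relative of S-adenosylhomocysteine hydrolase, was at 7.06, 6.98 and 7.06 against 8.69 and 8.40, and its fall by 1.51 (SE 0.13, adjusted p = 1.05e-06) had the smallest p of the comparison. These calls held whichever array was left out, as did those of Sfswap (-1.5), Etl4 (-1.43) and Fgfr1op2 (-1.38). Sfswap regulates splicing, and its probe set was at 6.37, 5.74 and 6.04 in BF and 7.49 and 7.61 in FC.

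Luc7l2 (-1.46), a part of the U1 particle, Thrap3 (-1.44) and Hnrnpa1 (-1.35), a splicing repressor, were lower as well. Nfib (-1.33), a transcription factor of the nuclear factor I family, Nisch (-1.42), Tef (-1.59), Col6a2 (-1.45) and Per2 (-1.32) completed the list. Without FC tongue replicate 1 none of these 8 was called (adjusted p 0.0563 to 0.366), and without FC 2 neither were Luc7l2 (0.0708), Hnrnpa1 (0.0686), Nfib (0.178), Col6a2 (0.144) and Per2 (0.146). Nfib, Col6a2 and Per2 failed without BF 2 as well (0.0652 to 0.129), and Nfib (0.102) and Col6a2 (0.0948) without BF 3. For Foxp1, with 7 probe sets, the others ranged from -0.35 to 0.19.

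Another reading asked which genes passed with more than 1 probe set in the same direction, a choice made after their values had been seen. There were 13 such genes higher in BF and 15 lower. Higher were Ppp1r3c, Fkbp5, Nampt, which makes the NAD precursor nicotinamide mononucleotide, Mrpl19, Timp3, Rgs5, Sypl, Vamp3, Bnip2, Dcun1d1, Kpna1, Ptp4a2 and Zfand5. For Vamp3, a vesicle fusion protein, the 2 called probe sets rose by 1.44 and 1.19, and both calls held whichever array was left out. The 2 probe sets of Nampt rose by 0.67 (SE 0.14, adjusted p = 0.00961) and 1.42 (SE 0.31, adjusted p = 0.0158). Lower were Luc7l2 and Zbtb20 with 3 probe sets each, and Ahcyl2, Cnn3, Csnk2a2, F2r, Fubp1, Gtf3c2, Hnrnpa1, Incenp, Masp1, Nisch, Rbm39, Sfswap and Zfp207 with 2 each. Fubp1, which binds single-stranded nucleic acid, fell by 1.16 and 1.18, and Rbm39, a splicing factor, by 1.31 and 0.96, where Rbm39 has 9 probe sets in all. Timp3, an inhibitor of matrix proteases, rose in 2 of its 4 probe sets (0.81 and 0.82), while its brightest was at 10.32 in BF and 10.69 in FC (change -0.37, adjusted p = 0.30).

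With only the brightest probe set of each of 12393 genes, 66 genes were higher (0.533%) and 108 lower (0.871%) at the adjusted p over all probe sets. At an unadjusted p under 0.05 there were 1805 (14.6%). BF lay above FC without overlap for 15.1% of these genes and below for 21.6%. The highest, after Pvalb, was Net1, a guanine nucleotide exchange factor, at 8.76, 8.67 and 8.85 in BF and at 7.04 and 7.52 in FC (change 1.48). Il1f9, an epithelial cytokine of the interleukin-1 family, was at 9.26, 9.76 and 9.74 against 8.49 and 8.51 (1.09). Mrpl27, of the mitochondrial ribosome, followed at 10.02, 10.34 and 10.09 against 9.11 and 9.02 (1.08, adjusted p = 0.00219), called whichever array was left out. Among the lowest were Meg3, a long non-coding RNA of an imprinted region, at 9.15, 8.58 and 8.76 against 10.23 and 9.86 (-1.22), Airn, another imprinted non-coding RNA (-1.17), and Slit2, a guidance ligand (-1.08). Cdca7, a target of Myc, was at 7.44, 7.24 and 6.95 against 8.47 and 8.32 (-1.19), and this call held whichever array was left out. Net1, Il1f9, Meg3, Airn and Slit2 were named after their values were seen.

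Extracellular matrix genes were the group with the lowest median in flown tongue. The matrix of muscle is a network of fibrillar collagens, of collagen VI around each fibre and of basement membrane laminins, made largely by fibroblasts. Of 22 measured collagens 2 were lower (Col6a2 and Col6a3) and none was higher, and for 15 of them all BF arrays lay below both FC arrays, against 21.6% of all genes. At an unadjusted p under 0.05, 12 were lower and 1 higher. The list's median change was -0.78, and that of all genes, with 1 probe set each, was -0.03. It ranged from -0.87 to -0.69 when single arrays were left out, and it was -0.74 over all probe sets of these genes.

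The 3 chains of collagen VI lay on the same side. Col6a2 was at 8.70, 8.21 and 8.18 in BF and at 9.89 and 9.74 in FC (SE 0.35, adjusted p = 0.029). Col6a3 was at 8.24, 7.92 and 7.65 against 9.03 and 9.11 (change -1.14, SE 0.28, adjusted p = 0.0348). Col6a1, the remaining chain, was at 9.01, 8.24 and 8.38 against 10.05 and 9.95, a difference of -1.46 that did not pass (SE 0.43, adjusted p = 0.0742). The groups did not overlap for any of the 3 chains. Col6a2 and Col6a3 were called without BF tongue replicate 1 (adjusted p = 0.0336 and 0.0339) and not without any of the other 4 arrays (0.0797 to 0.323).

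Of the other collagens, several lay below FC without passing. Col3a1 was at 11.10, 10.79 and 10.57 in BF and at 12.41 and 12.56 in FC (difference -1.66, SE 0.56, adjusted p = 0.128). Col1a1 was at 7.43, 6.85 and 7.03 against 8.84 and 8.47 (-1.55, SE 0.82, adjusted p = 0.366). Col5a1 (-0.85, adjusted p = 0.0636) and Col5a3 (-0.94, adjusted p = 0.0627) lay just outside the limit.

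Of 37 other matrix genes 3 were lower and none was higher, all BF arrays lay below FC for 26 (against 21.6% of all genes), and the median was -0.59. Over all probe sets of these genes it was -0.28. At an unadjusted p under 0.05, 15 were lower. The called genes were the laminin chains Lamb1, at 7.98, 7.77 and 7.39 in BF and 8.48 and 8.52 in FC (-0.79, SE 0.18, adjusted p = 0.0206), and Lamc1, at 7.89, 7.55 and 7.44 against 8.34 and 8.38 (-0.73, SE 0.17, adjusted p = 0.0234). The third was P4ha2, which hydroxylates proline in collagen, at 7.15, 6.72 and 6.80 against 7.48 and 7.65 (-0.67, SE 0.17, adjusted p = 0.0383). Lamb1 and Lamc1 share a laminin trimer of the basement membrane. None of the 3 was called without BF 3 (0.0962 to 0.116), FC 1 (0.23 to 0.241) or FC 2 (0.148 to 0.274), and Lamc1 and P4ha2 failed without BF 2 as well (0.069 and 0.128). Dimmer probe sets, not called, differed by -0.69 and -0.16 for Lamb1 and by 0.00 for Lamc1. Postn, a matricellular protein, was at 7.76, 7.97 and 7.66 against 9.01 and 9.25, a difference of -1.34 (SE 0.36, adjusted p = 0.0507). Here BG, with a mean of 9.19, lay nearer to FC, and the same held for Col3a1 (BG mean 12.11) and Vcan (BG mean 6.45 against 5.49 in BF and 6.46 in FC).

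**Figure D3:**
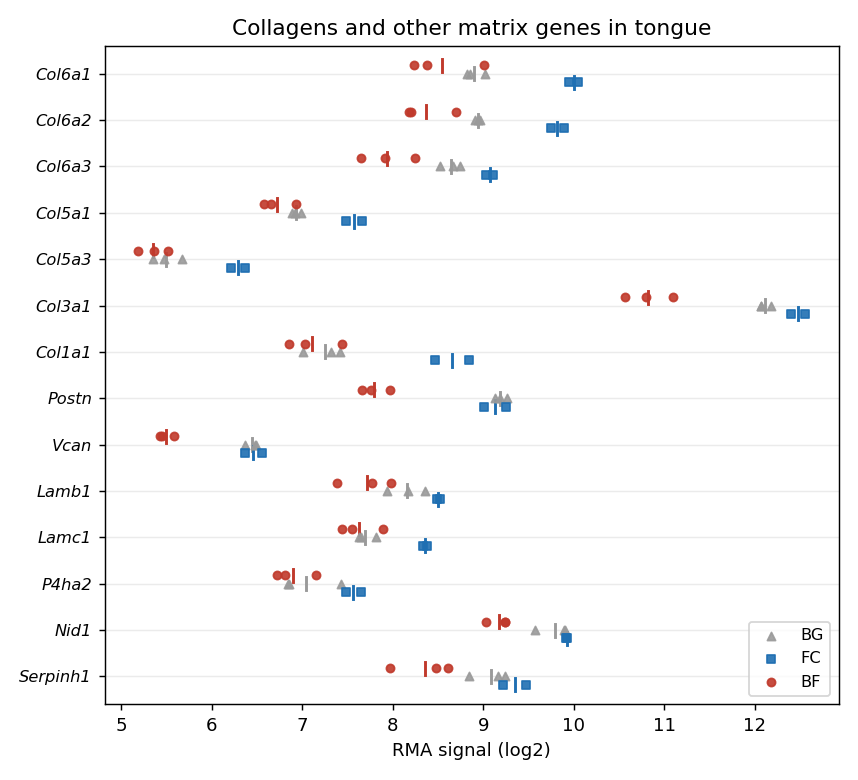
Log2 RMA signal of collagens and other matrix genes in the tongue arrays of BF (circles), FC (squares) and BG (triangles), with bars at the group means. The 14 genes are a selection, and in each of them every BF array lies below both FC arrays. In the full lists this held for 15 of 22 collagens and 26 of 37 other matrix genes. The change was positive for 4 of these collagens and 5 of the other matrix genes. BG lies near BF for Col1a1 and Col5a3 and near FC for Postn and Vcan.

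Fibroblast markers, which share Col1a1, Col3a1 and other matrix genes with these lists, lay lower as well. Of 14 markers limma called 0 (5 lower at an unadjusted p under 0.05), and their median was -0.58. In 11 of the 14 all BF arrays lay below FC, against 21.6% of all genes. The mean level of the list was 9.46 to 9.72 in BF and 10.17 to 10.23 in FC. In BG it was 9.96 to 9.99, nearer to FC. The markers of smooth muscle and pericytes had a median of -0.17 with 0 of 12 called (2 lower unadjusted), and those of skeletal muscle fibres of 0.00 with 0 of 13 called (1 higher and 1 lower unadjusted). In a bulk sample, fewer fibroblasts and less matrix RNA per fibroblast cannot be told apart, and the part of the fibroblast content in these results was not tested.

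The circadian clock is a loop in which Bmal1 (Arntl) and Clock drive genes through the E-box sequence CACGTG, among them the repressors Per and Cry and the output factors Dbp, Tef and Hlf. Of 19 clock genes 1, Per2, was lower and none was higher. All BF arrays lay below FC for 10 and above FC for 2, against 21.6% and 15.1% of all genes. The clock list's median was -0.38 (-0.13 over all probe sets of its genes, and -0.17 without BF tongue replicate 2). At an unadjusted p under 0.05, 7 were lower and 1 higher. Per2 was at 7.11, 6.77 and 7.26 in BF and at 8.30 and 8.43 in FC (SE 0.29, adjusted p = 0.0172). It was not called without BF 2 (adjusted p = 0.0652), FC 1 (0.179) or FC 2 (0.146). A dimmer probe set of Per2 differed by -0.06 and was not called (adjusted p = 0.926).

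The output factors lay on the same side as Per2. Dbp was at 8.86, 7.28 and 8.14 in BF and at 9.86 and 9.52 in FC, a difference of -1.59 with a wide spread (SE 0.57, adjusted p = 0.157). Hlf was at 7.88, 7.30 and 7.78 against 8.37 and 8.39 (-0.72, SE 0.22, adjusted p = 0.0806). A probe set of Tef was at 6.67, 5.79 and 6.58 against 8.05 and 7.83 and passed (-1.59, SE 0.25, adjusted p = 0.00128), but not without FC 1 (0.0563). The brightest probe set of Tef, at 10.34, 9.61 and 10.27 against 10.54 and 10.54, did not pass (-0.47, adjusted p = 0.236). Arntl was on the other side, at a mean of 6.41 in BF and 5.69 in FC (0.72, adjusted p = 0.356). Nr1d1 overlapped between the groups (-0.16, adjusted p = 0.90). Sampling times of day are not given in the sources used here, so that the hour and the group cannot be told apart.

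Tef has 2 start sites in RefSeq, and its probe sets differed, so both promoters are shown, from 250 bases before to 50 after the start, on the plus strand of GRCm38.p6, at chr15:81802423-81802722 and chr15:81811164-81811463. Capitals mark the E-box CACGTG, a palindrome that reads the same on both strands.
Tef promoter 1: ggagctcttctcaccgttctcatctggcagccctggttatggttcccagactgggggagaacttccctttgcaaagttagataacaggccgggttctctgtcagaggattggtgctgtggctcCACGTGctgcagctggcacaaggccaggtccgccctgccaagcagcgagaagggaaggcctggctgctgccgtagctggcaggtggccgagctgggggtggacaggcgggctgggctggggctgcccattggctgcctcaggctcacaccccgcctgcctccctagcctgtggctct
Tef promoter 2: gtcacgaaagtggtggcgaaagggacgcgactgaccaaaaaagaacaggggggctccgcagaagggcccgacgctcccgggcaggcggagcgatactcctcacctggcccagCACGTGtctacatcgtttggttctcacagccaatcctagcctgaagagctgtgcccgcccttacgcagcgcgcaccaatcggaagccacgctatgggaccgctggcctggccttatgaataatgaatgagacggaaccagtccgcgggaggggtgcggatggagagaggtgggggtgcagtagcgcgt

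Each window holds 1 E-box, which starts 127 bases before the first start site and 138 bases before the other. Of 32851 promoter windows of the same length in the RefSeq table, 7.15% hold this sequence. Of the 19 clock genes, 16 have 1 or more windows, and 4 hold it in at least 1 (Bhlhe41, Cry1, Per1 and Tef). This count is by gene and the share is by window, so they are unlike measures. Per2 has no window, and those of Dbp and Hlf hold no E-box. The motif is a description of the sequence and says nothing of binding in these samples.

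Among glucocorticoid-responsive genes, which answer the adrenal stress hormone through its nuclear receptor, 1 of 24 was higher and none was lower, with a median of -0.07 that was 0.01 without BF tongue replicate 3 and 0.04 without FC 2. It was Fkbp5, a chaperone that dampens the receptor, at 10.63, 9.92 and 10.32 in BF and at 8.99 and 9.31 in FC (change 1.14, SE 0.25, adjusted p = 0.0175). Its other probe set rose by 1.18 (adjusted p = 0.0371). The BG mean of 9.19 lay with FC. The call was lost without BF 1 (adjusted p = 0.0662), BF 3 (0.0517), FC 1 (0.323) or FC 2 (0.0697). In LD, Fkbp5 rose by 1.21 (SE 0.18, adjusted p = 0.00041).

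Of 20 genes of muscle atrophy and of the FoxO factors, 0 were called by limma in tongue (3 higher at an unadjusted p under 0.05), with a median of 0.13 that became 0.03 without BF tongue replicate 1. Fbxo32, the atrophy ubiquitin ligase atrogin-1, was at 11.73, 11.06 and 11.47 in BF and at 10.64 and 10.65 in FC, a difference of 0.78 that did not pass (SE 0.26, adjusted p = 0.127). In LD 8 of these 20 were higher, and Fbxo32 rose by 1.85 (SE 0.18). Lcn2, an iron-binding lipocalin of the acute phase, was at 7.26, 7.04 and 7.04 against 5.66 and 5.83 (1.37, SE 0.51, adjusted p = 0.173), where in LD it rose by 4.18 (SE 0.35). The groups did not overlap for Fbxo32 or Lcn2 in tongue. The SD of Lcn2 was 0.13 in BF and 0.13 in FC of tongue, and 0.80 and 0.38 in LD, and its SE pools both muscles. For Fbxo32 and Lcn2 the difference between the muscles did not pass (adjusted p = 0.363 and 0.136).

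Genes of stress and insulin signalling that the study discusses were not called with the brightest probe set. Sesn1, a stress-induced inhibitor of growth signalling, differed by 0.32 (adjusted p = 0.43), Pik3r1, the regulatory subunit of PI3-kinase, by 0.34 (0.738) and Gsk3b, a kinase of glycogen synthase, by -0.07 (0.93). Prkcd, a protein kinase C, differed by -0.16 (0.871), Synj2 by 0.23 (0.741), Keap1, the sensor of oxidative stress, by -0.14 (0.722), Cirbp, a cold-inducible RNA-binding protein, by 0.35 (0.677) and Pnmt, which makes adrenaline, by -0.62 (0.254). With these probe sets, Sesn1 (1.04), Gsk3b (0.70) and Pik3r1 (1.12) were called higher in LD. Other probe sets of Keap1, Synj2 and Pnmt were called higher in tongue. Their changes were 1.13 for Keap1 (adjusted p = 0.0134), 1.14 for Synj2 (0.0165) and 1.32 for Pnmt (0.0267), so that probe sets of 1 gene differed. It is these other probe sets that the study listed for the 3 genes, as higher in flown LD than in either ground group. The tests of the difference between the muscles did not pass for Sesn1 (adjusted p = 0.384), Gsk3b (0.471) or Pik3r1 (0.705).

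Of 16 contractile genes of fast fibres 2 were higher and none was lower. Myoz1, which anchors calcineurin at the Z-disc, was at 12.82, 12.49 and 12.50 in BF and at 12.23 and 12.08 in FC (0.45, SE 0.11, adjusted p = 0.0354), and failed without BF 1 (0.13), FC 1 (0.179) or FC 2 (0.296). Pvalb was at 13.57, 12.63 and 11.64 against 11.02 and 11.03 (SE 0.40, adjusted p = 0.0386). It was called without BF 3 (adjusted p = 0.00638) and not without any of the other arrays (0.0878 to 0.324). The range over the BF arrays of Pvalb was wider than its change, and in BG it was at 12.38, 10.93 and 12.94. The SD of Pvalb was 0.96, 0.01 and 1.04 in BF, FC and BG of tongue. In LD it was 0.04 in BF and 0.03 in FC, and the SE pools both muscles. The list's median was 0.14.

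Some genes of fibre types and of fat varied still more within BF, and within BG as well. Actn3, the actinin of the fastest fibres, was at 11.64, 11.00 and 6.84 in BF and at 6.88 and 6.83 in FC. Myh2, the myosin of fast oxidative fibres, was at 10.39, 8.60 and 6.71 against 6.99 and 6.58. Myl2, a light chain of slow fibres and heart, was at 8.68, 7.94 and 4.33 against 5.39 and 3.94. Adipoq, made by fat cells, was at 5.82, 8.34 and 3.67 against 3.93 and 3.74. In these 4 genes BF tongue replicates 1 and 2 lay above and replicate 3 within or near the FC range, and none passed (adjusted p = 0.103, 0.235, 0.37 and 0.332). The range over the BF arrays exceeded the difference between BF and FC in each. In BG, Actn3 was at 9.69, 6.53 and 10.84 and Myh2 at 8.89, 6.39 and 10.10. Myl2 was there at 9.12, 3.95 and 10.18 and Adipoq at 6.71, 3.58 and 6.95. Without BF tongue replicate 3, Actn3 (adjusted p = 0.00331) and Myh2 (0.0495) passed.

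Of 50 mitochondrial ribosomal proteins, which make the respiratory chain's mitochondrially encoded parts, 2 were higher and none lower. All BF arrays lay above FC for 22 of them, against 15.1% of all genes, and the median was 0.18 (0.12 to 0.20 without single arrays, 0.10 over all probe sets). Beside Mrpl27, the call was Mrpl19, at 7.88, 8.35 and 7.87 in BF and at 7.18 and 7.23 in FC (0.83, SE 0.22, adjusted p = 0.0469), which was lost without any single array (0.0575 to 0.375). In BG the list lay higher still, with a median of -0.18 for BF minus BG and -0.40 for FC minus BG. Of 33 proteasome subunits 1, Psmd7, was higher, at 9.37, 9.21 and 9.42 against 8.64 and 8.94 (0.54, SE 0.13, adjusted p = 0.0228), with a list median of 0.19. Psmd7 was lost without BF 1 (0.0579), BF 3 (0.0832) or FC 1 (0.454). Psmd8 differed by 0.59 (adjusted p = 0.0707). At an unadjusted p under 0.05, 7 mitochondrial ribosomal proteins and 8 proteasome subunits were higher and none lower.

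Genes of the oxidation of fatty acids, a fuel of muscle between meals, gave 0 calls of 29 by limma (6 higher at an unadjusted p under 0.05). All BF arrays lay above FC for 16 and below for 1, against 15.1% and 21.6% of all genes. The list's median was 0.23, and 0.17 to 0.22 without single arrays. Pdk4, which spares glucose by closing pyruvate dehydrogenase, was at 12.03, 12.29 and 11.64 in BF and at 10.34 and 11.07 in FC (1.28, SE 0.46, adjusted p = 0.159). Plin5, a lipid droplet protein of oxidative tissue, was at 9.24, 8.65 and 9.11 against 7.67 and 7.43 (1.45, SE 0.55, adjusted p = 0.182). Acot2 (1.03), Cd36 (0.66), the fatty acid transporter, and Eci1 (0.60) were on the same side without passing (adjusted p 0.14 to 0.217), although a dimmer probe set of Cd36 rose by 1.08 (adjusted p = 0.0476). In LD 5 genes of the list were higher and 2 lower, with a median of 0.14.

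Of 37 genes of DNA replication 1, Dnmt1, was lower and none was higher, with a median of -0.18. In 15 of the 37 all BF arrays lay below FC, against 21.6% of all genes. Dnmt1, which copies DNA methylation, was at 8.84, 8.62 and 8.78 in BF and at 9.50 and 9.41 in FC (-0.71, SE 0.16, adjusted p = 0.0188). It failed without BF 2 (0.0656), FC 1 (0.28) or FC 2 (0.101). Its partner Uhrf1 differed by -0.84 (adjusted p = 0.0884), Lig1, a DNA ligase, by -0.52 (0.0903) and Rrm2, of ribonucleotide reductase, by -0.87 (0.112). Of 39 mitosis genes limma called 0 (1 higher and 5 lower unadjusted), with a median of -0.10. In this list BG stood above both other groups, with a median of -0.75 for BF minus BG and -0.63 for FC minus BG.

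Of 16 genes of the neuromuscular junction, where nerve meets fibre, 1 was lower, Lrp4, the agrin receptor. It was at 7.31, 7.33 and 7.34 in BF and at 8.36 and 8.19 in FC (-0.95, SE 0.18, adjusted p = 0.00659), and failed without FC 1 (0.179). Agrn, the nerve signal that Lrp4 receives, differed by -0.63 (adjusted p = 0.215) and Ncam1 by -0.54 (0.086), each with all BF arrays below FC. In LD, Lrp4 fell by 0.83 (adjusted p = 0.00068). Shmt2, of mitochondrial serine metabolism, was the call among 24 ATF4 targets, in its brightest probe set only, as its others changed by 0.06 to 0.10. The called probe set was at 7.81, 7.66 and 7.47 against 8.54 and 8.15 (-0.70, SE 0.18, adjusted p = 0.0445). It failed without BF 2 (0.0897), BF 3 (0.151), FC 1 (0.554) or FC 2 (0.0732). Gabarapl2, of the autophagosome, was the call among 28 genes of autophagy and lysosomes, at 10.77, 11.01 and 11.09 against 10.48 and 10.49 (0.47, SE 0.12, adjusted p = 0.0436), and failed without any array but BF 1 (0.112 to 0.345).

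Interferon-responsive genes, which cells switch on against viruses, were set apart by 1 flown array. Ifit1 was at 5.33, 5.24 and 9.05 in BF and at 5.38 and 5.09 in FC. Oasl2 was at 5.28, 4.93 and 8.34 against 5.67 and 4.93, and Usp18 at 5.48, 5.15 and 7.99 against 5.08 and 4.76. BF tongue replicate 3 alone was high, while replicates 1 and 2 lay in or near the range of FC. Over the 28 genes the mean level was 6.45, 6.28 and 7.93 in BF, 6.56 and 6.29 in FC and 6.35 to 6.6 in BG. Limma called 0 of the 28 (4 higher unadjusted), and the median of 0.33 became -0.05 without BF tongue replicate 3. Genes of MHC and antigen presentation followed the same array, with mean levels of 8.10, 7.78 and 8.98 in BF against 8.17 and 7.97 in FC. Of these 15 genes 0 were called (2 higher unadjusted), and the median of 0.28 became -0.11 without this array.

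Of the 49 lists examined 38 held no called gene in tongue, and their medians ranged from -0.58 to 0.33. Of the 49 medians, 21 took both signs when single BF or FC arrays were left out, so their direction depends on 1 array. In 19 of the 38 at least 1 gene was called in LD. Among metabolic lists the median was 0.05 for subunits of oxidative phosphorylation (42 genes, 5 higher unadjusted), 0.01 for glycolysis and glycogen (23, 1 higher and 1 lower), -0.06 for insulin signalling and glucose uptake (26, none) and -0.08 for cholesterol and lipid synthesis (23, 3 higher and 1 lower). Of growth and regeneration lists, it was -0.16 for myostatin, activin and IGF signalling (22, 1 higher and 3 lower), -0.02 for myogenic regulators (19, 2 higher and 3 lower), 0.01 for mechanical load response (17, 1 lower) and 0.17 for slow fibre genes (16, none), which was -0.01 without FC tongue replicate 2 and 0.02 without BF 2. Among stress lists it was -0.14 for heat shock genes (28, 1 higher and 1 lower), -0.11 for chaperones of the endoplasmic reticulum (27, 4 lower), -0.09 for NRF2 and antioxidant genes (28, 3 higher and 2 lower), -0.01 for p53 targets (21, 1 higher and 2 lower) and 0.16 for immediate early genes (27, none), which was -0.03 without BF tongue replicate 1. Cytosolic ribosomal proteins stood at 0.02 (37 genes, 1 higher and 2 lower), cold-inducible and splicing proteins at -0.11 (25, 1 higher and 4 lower), metal handling at 0.06 (22, 2 higher and 2 lower), histones at -0.05 (7, none) and acute phase and cytokine genes at 0.08 (30, 4 higher and 1 lower).

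**Figure D4:**
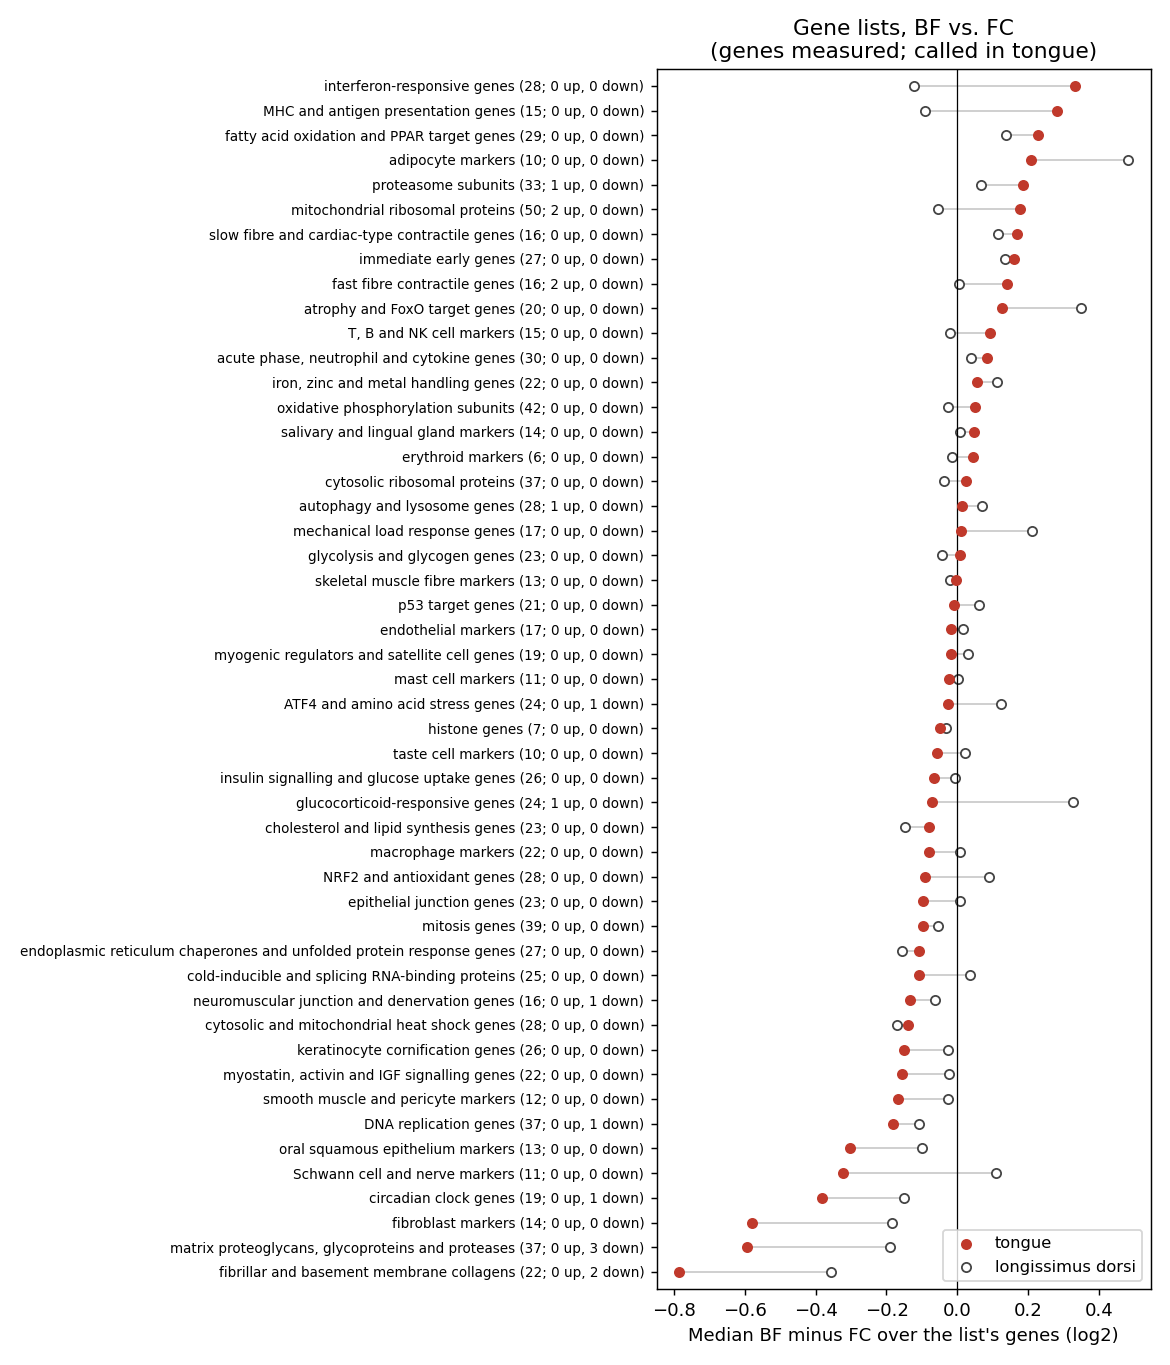
Median log2 change, BF minus FC, over the genes of each of the 49 lists in tongue (filled) and LD (open), ordered by the value in tongue, with the number of genes measured and called in tongue beside the name. Collagens (-0.78) and other matrix genes (-0.59) stand lowest in tongue, at -0.36 and -0.19 in LD, and the interferon list at the top rests on 1 BF array.

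Markers of other tissue parts were compared in the same way. Oral epithelium markers had a median of -0.30 with 0 of 13 called (5 lower unadjusted), and mean levels of 11.60 to 11.74 in BF and 11.92 to 11.94 in FC. In 9 of the 13 all BF arrays lay below FC, against 21.6% of all genes. Krt14, a keratin of the basal layer, was at 11.20, 11.66 and 11.50 against 11.73 and 11.79 (-0.30, adjusted p = 0.292), and Krt5 overlapped (-0.09, adjusted p = 0.881). Schwann cell and nerve markers had a median of -0.32 (0 of 11 called, 3 lower unadjusted). Their mean levels were 6.48 to 6.51 in BF and 6.76 to 6.77 in FC. In 6 of the 11 all BF arrays lay below FC, beside the same 21.6% of all genes. The epithelial lists of cornification (26 genes, median -0.15, 1 higher and 3 lower unadjusted) and junctions (23, -0.10, 1 higher and 1 lower) held 0 calls. So did the markers of glands (14, 0.05, none unadjusted), taste cells (10, -0.06, 2 lower), fat cells (10, 0.21, none), macrophages (22, -0.08, none), mast cells (11, -0.02, 1 lower), lymphocytes (15, 0.09, 1 higher), endothelium (17, -0.02, 2 higher and 2 lower) and red cells (6, 0.04, none). The part of epithelium and nerve in the calls was not tested.

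The same comparison in LD, which shares no array with tongue, gave 827 calls (3.66%), 465 higher (2.06%) and 362 lower (1.6%). With 1 probe set per gene, 154 genes were higher (1.24%) and 228 lower (1.84%) in LD. Of the 262 probe sets higher in tongue, 109 were also called higher in LD, which is 41.6% of the tongue calls and 23.4% of the LD calls. Of the 244 lower, 45 were also called lower, 18.4% of the tongue calls and 12.4% of the LD calls. None was called in opposite directions. The change in LD had the sign of that in tongue for 93.5% of the higher and 83.2% of the lower probe sets, and for 59.8% of all. Of the 14 largest increases 11, and of the 14 largest decreases 8, were called in LD as well. Rbbp4 rose by 1.19, Hspb7 by 1.99 and Txnip by 1.94 in LD, while Pvalb differed by -0.01. Per2 fell by 1.33 there. Of the collagens 0 of 22 were called in LD, with a median of -0.36, and the tests of the difference between the muscles did not pass for Col6a2 (adjusted p = 0.684) or Col6a3 (0.70).

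The BF vs. FC difference itself differed between tongue and LD for 15 probe sets (0.0663%), where 1823 passed at an unadjusted p under 0.05 (8.06%). In the clearest 10, the change in tongue was the larger in size. Ahcyl2 fell by 1.51 in tongue and by 0.39 in LD, a difference of -1.12 (SE 0.15, adjusted p = 0.00653). Cdca7 fell by 1.19 in tongue and differed by 0.08 in LD (difference -1.26, adjusted p = 0.0225). Nrp2, a receptor of semaphorins and of vascular growth factor, was at 8.04, 8.50 and 8.05 in BF and at 9.33 and 9.05 in FC of tongue. It fell by 0.99 there and differed by 0.05 in LD (difference -1.03, adjusted p = 0.0244). Foxp1 (-1.80 and -0.40), Stk39, a kinase of ion transport (-1.11 and -0.11), and Ap2a2, of clathrin coats (-0.91 and 0.00), followed the same pattern. Vav3, a guanine nucleotide exchange factor, was the increase, at 6.13, 6.33 and 6.01 in BF and at 4.91 and 5.21 in FC of tongue (1.10, and -0.03 in LD). The other 3 probe sets name no gene. In LD, the BF and FC means were low for Foxp1 (3.85 and 4.26), Ap2a2 (4.24 in each) and Vav3 (4.24 and 4.27). They were higher for Ahcyl2 (6.48 and 6.87), Cdca7 (5.38 and 5.31) and Nrp2 (7.09 and 7.05). Whether a change in LD could show at the low levels was not tested. The probe sets of Foxp1, Stk39, Ap2a2 and Vav3 were the dimmest of their genes. In tongue the brighter probe sets of Vav3 changed by 0.02 and 0.22. Of the 15 calls, 0 held whichever array was left out, with counts of 1 and 2 without FC tongue replicates 1 and 2.

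**Figure D5:**
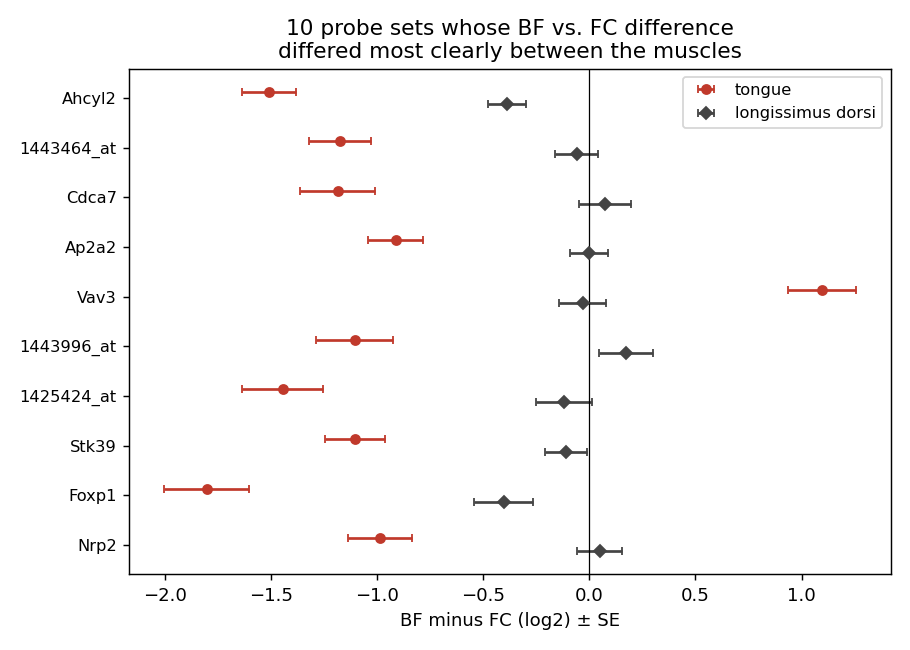
BF minus FC on the log2 scale in tongue (circles, 3 against 2 arrays) and LD (diamonds, 5 against 5), with the standard error of the fit, for the 10 probe sets with the smallest p of the difference between the muscles. All but Vav3 are lower in BF in tongue, and the LD values lie between -0.40 and 0.17.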

How the data were processed

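Total RNA (100 ng) of tongue and LD was labelled by a 3′ in vitro transcription protocol and hybridized to Affymetrix mouse genome arrays. The deposited values are log2 signals that the authors normalized by RMA in Partek Genomics Suite 6.6, and no values before normalization were used here. The number of arrays limits the precision. Probe sets were named from the platform annotation, which can be old: of 22626, 20380 name 1 gene, 691 several and 1555 none, and 20351 matched RefSeq (GRCm38.p6) by gene identifier. A linear model of 6 groups, housing by muscle, was fitted to all 23 arrays with limma 3.58.1 in R 4.3.3 (17 residual degrees of freedom), with Benjamini-Hochberg adjustment over all probe sets. Calls were made at an adjusted p under 0.05. The difference between tongue and LD was an interaction contrast of the same fit.

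Named were the 14 largest called increases and decreases whose arrays did not overlap (1 probe set per gene), up to 4 genes of smallest p in each list, the 10 smallest p of the difference between muscles, genes the study discusses and defining markers. Other genes are said to be chosen after their values were seen, or are given as values beside these. The 49 gene lists used the brightest probe set of each gene by its mean over the 23 arrays. The comparison and the lists were chosen with earlier results of these data known. The alternatives were the arrays in the fit, the moderation, the normalization, a filter on dim probe sets, array weights, a replicate block, 1 probe set per gene or all of them, and leaving out each array. No pairing of arrays entered the reported fit. Deviations from the group means of BF and BG tongue arrays with the same replicate number correlated at 0.167, 0.383 and 0.203. The replicate block joined all arrays of a muscle with the same number, FC included. What the numbers in the sample titles share is not given in the labels. In simulated arrays the fit called 18% of changes of 0.5, 82% of 1, 94% of 1.5 and 100% of 2. It also called 3 of 22426 unchanged probe sets. The simulated noise was independent between arrays, with the same spread in all groups. Array-wide shifts and the closeness of the 2 FC arrays were thus not covered. Trim63, which the study discusses, was not analysed here.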

Additional observations from a re-analysis of the deposited data

Results flagged for a closer look

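The BF vs. FC difference was tested for a difference between tongue and LD with an interaction contrast in limma, and 15 probe sets passed. None of these 15 passed whichever tongue array was left out. The 10 with the smallest p are given here as the change in tongue minus the change in LD on the log2 scale. The difference was -1.12 for Ahcyl2, -1.26 for Cdca7, -0.91 for Ap2a2, -0.995 for Stk39, -1.40 for Foxp1 and -1.03 for Nrp2. It was 1.13 for Vav3, the only positive value among the 10. For the 3 probe sets that name no gene it was -1.12, -1.28 and -1.33. The adjusted p was 0.00653 for Ahcyl2 and 0.0225 to 0.0244 for the other 9. For some of the 10, such as Foxp1 (LD means 3.85 in BF and 4.26 in FC), the LD signal was low. Whether a change in LD could show there was not tested.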

How the results depend on the processing

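The 506 calls became 323 with the brighter probe sets alone, 2031 with array weights, 106 with 1 probe set per gene and 45 to 421 without single arrays (45 without FC tongue replicate 1, 142 without FC 2, 302 without BF 3). The 262 higher calls became 984 with array weights, 41 with 1 probe set per gene and 17 to 197 without single arrays. The 244 lower calls became 395 with the 8 tongue arrays alone, 112 with the brighter probe sets, 1047 with array weights, 65 with 1 probe set per gene and 28 to 224 without single arrays. Over 2-fold, the 86 higher calls became 6 with 1 probe set per gene and 12 to 87 without single arrays. The 62 lower calls became 20 with the brighter probe sets, 12 with 1 probe set per gene and 22 to 80 without single arrays. The 15 differences between muscles became 4 with no moderation, 3 with the brighter probe sets, 105 with array weights, 8 with the replicate block, 0 by limma with 1 probe set per gene and 1 to 14 without single arrays. With the 5 BF and FC tongue arrays alone, BF vs. FC gave 577 calls, 324 of them among the 506. With the 8 tongue arrays alone it gave 723, 385 of them among the 506. For BF vs. BG and FC vs. BG the settings were chosen after seeing the data. The 187 calls of BF vs. BG became 65 with the 8 tongue arrays alone, 109 with no moderation, 103 with the brighter probe sets, 1839 with array weights, 532 with the replicate block (185 of them among the 187), 103 with 1 probe set per gene and 10 to 1067 without single arrays. The 2139 of FC vs. BG became 4763 with array weights, 1279 with 1 probe set per gene and 125 to 2470 without single arrays, and were 3171 with the block. The cause was not tested, beyond the fewer probe sets or arrays that some of these settings hold. A lone FC array was assumed to vary like the arrays of other groups.

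BF and FC tongue arrays with the same number share only a number: the correlation of their deviations was 0.0557 and 0.095 in the 2 pairs. With the replicate block the calls were 613 and 4 of the 41 named called probe sets failed. The 41 kept their direction in each setting that tested them (34 of them with the brighter probe sets and 18 with 1 probe set per gene), and 31 failed without FC 1, 20 without FC 2, 13 without BF 3, 12 without BF 2 and 7 without BF 1. Signs turned only among genes that had not passed. Without single arrays, Nr1d1 ranged from -0.38 to 0.23 (positive without BF 2), Krt5 from -0.30 to 0.17 (positive without BF 2 and, at 0.12, without FC 1), Gsk3b from -0.20 to 0.060 (positive without FC 1 and, at 0.04, BF 2), Prkcd from -0.31 to 0.028 (positive without BF 2) and Oasl2 from -0.20 to 1.51 (negative without BF 3). With array weights Nr1d1 was at 0.049 and Krt5 at 0.017. Of 490 list medians, 448 moved by less than the spread between arrays. Quantile normalization moved the median of all probe sets by 0.00328 and centring by 0.0229.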
